A study of Mus musculus with 36 samples.

Results

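The genes described are 10 regulators and enzymes of fatty acid synthesis and storage, Nr1h3, Srebf1, Mlxipl, Acly, Acaca, Acacb, Fasn, Scd1, Scd2 and Pnpla3. They were taken by their gene names from the 46893 features of the count table, and each name matched 1 feature. RNA of the gastrocnemius, a calf muscle, was sequenced from 36 wild-type male C57BL/6 mice, which formed 6 groups of 6. They were 3 to 4 weeks old at the start and ate their diets for 12 weeks. NFD-C mice were sedentary and ate a diet with 16% of energy from fat and 64% from carbohydrate. The other 5 groups ate a high-fat diet with 45% of energy from fat and 35% from carbohydrate. Of these, HFD-C mice were sedentary, and the others had a running wheel. HFD-U mice ran without restriction, for 8.3 km/day, and the rest were held to shares of that distance, with 6.3 km/day in HFD-75%, 4.2 km/day in HFD-50% and 2.1 km/day in HFD-25%. In both diets the fat was soybean oil, the wheels of the restricted runners were braked once the daily distance was met, and only males were studied.

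Fatty acid synthesis starts from citrate, which ATP citrate lyase (Acly) turns into acetyl-CoA in the cytosol. The acetyl-CoA carboxylases (Acaca and Acacb) make malonyl-CoA from it, fatty acid synthase (Fasn) builds palmitate, and the stearoyl-CoA desaturases (Scd1 and Scd2) make monounsaturated fatty acids. Many of these genes are known targets of SREBP-1 (Srebf1), of the carbohydrate-responsive factor ChREBP (Mlxipl) and of the oxysterol receptor LXR alpha (Nr1h3), which also raises Srebf1 transcription in liver. SREBP-1 is made as a membrane-bound precursor and is active only after cleavage, so a transcript count does not measure its active form. In muscle, malonyl-CoA is better known as a brake on the entry of fatty acids into mitochondria than as a building block.

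Promoter windows are shown for Srebf1, Pnpla3 and Fasn, which differed between HFD-50% and HFD-U, and for Mlxipl, which has the one SREBP site among the members. Nr1h3 and Scd1 also differed between HFD-50% and HFD-U. The Nr1h3 windows 1 and 2 held 0 motif matches and are not shown. RefSeq windows on GRCm38.p6, from 250 bases before to 50 bases after an annotated start, were found for 8 of the 10 members (12 windows). Scd1 and Scd2 had none. Each line is written 5′ to 3′ on the strand of the gene, in lower case, and capitals mark the motif matches on either strand. The motifs were an SREBP site (TCACNCCAC), the LXR element AGGTCA, singly or as a direct repeat with 4 bases between the copies (DR4), an E-box (CACGTG), an NF-Y box (CCAAT) and a GC box (GGGCGG).
Srebf1 window 1, chr11:60222532-60222831 (-): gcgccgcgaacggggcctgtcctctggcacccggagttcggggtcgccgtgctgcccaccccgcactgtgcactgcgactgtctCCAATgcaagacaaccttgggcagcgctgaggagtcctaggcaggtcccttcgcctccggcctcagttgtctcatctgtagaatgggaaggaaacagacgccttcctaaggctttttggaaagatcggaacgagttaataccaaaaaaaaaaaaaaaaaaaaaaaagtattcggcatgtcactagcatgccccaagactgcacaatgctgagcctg
Srebf1 window 2, chr11:60220578-60220877 (-): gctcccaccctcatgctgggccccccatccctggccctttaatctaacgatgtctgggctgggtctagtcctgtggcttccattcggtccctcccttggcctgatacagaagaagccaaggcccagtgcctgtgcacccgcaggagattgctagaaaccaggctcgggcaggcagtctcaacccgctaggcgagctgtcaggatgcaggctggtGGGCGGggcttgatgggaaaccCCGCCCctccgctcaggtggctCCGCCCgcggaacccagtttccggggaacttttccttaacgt
Srebf1 window 3, chr11:60210422-60210721 (-): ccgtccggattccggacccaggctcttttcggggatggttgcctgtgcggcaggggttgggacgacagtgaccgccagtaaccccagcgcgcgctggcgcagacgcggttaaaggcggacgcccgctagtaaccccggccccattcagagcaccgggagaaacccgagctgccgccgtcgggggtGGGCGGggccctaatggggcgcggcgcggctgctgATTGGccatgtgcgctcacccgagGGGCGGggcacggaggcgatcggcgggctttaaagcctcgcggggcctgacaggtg
Pnpla3, chr15:84167566-84167865 (+): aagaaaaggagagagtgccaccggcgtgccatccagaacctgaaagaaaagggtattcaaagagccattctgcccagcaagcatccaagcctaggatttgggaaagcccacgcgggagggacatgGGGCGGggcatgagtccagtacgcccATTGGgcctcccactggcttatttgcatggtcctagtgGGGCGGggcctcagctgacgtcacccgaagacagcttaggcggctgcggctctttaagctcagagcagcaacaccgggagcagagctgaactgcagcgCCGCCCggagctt
Fasn, chr11:120824498-120824797 (-): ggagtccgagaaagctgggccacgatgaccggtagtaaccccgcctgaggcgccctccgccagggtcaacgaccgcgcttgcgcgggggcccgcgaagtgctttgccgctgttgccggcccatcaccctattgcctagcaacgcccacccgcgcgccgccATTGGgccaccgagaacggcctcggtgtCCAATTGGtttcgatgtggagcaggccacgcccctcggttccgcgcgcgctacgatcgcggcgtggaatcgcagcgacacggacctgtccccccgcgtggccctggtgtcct
Mlxipl window 1, chr5:135106641-135106940 (+): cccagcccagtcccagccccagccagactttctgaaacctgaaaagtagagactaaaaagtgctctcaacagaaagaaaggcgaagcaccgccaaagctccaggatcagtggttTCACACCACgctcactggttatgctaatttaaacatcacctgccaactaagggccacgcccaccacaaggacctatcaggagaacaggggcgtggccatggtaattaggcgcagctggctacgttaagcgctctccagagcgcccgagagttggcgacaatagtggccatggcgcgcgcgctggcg

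All 3 Fasn matches were NF-Y boxes, and 2 of them overlap each other. Pnpla3 held 1 NF-Y box and 3 GC boxes, and its NF-Y box began 99 bases before the start. The third Srebf1 window held 1 NF-Y box and 2 GC boxes, the second held 3 GC boxes and the first 1 NF-Y box. Of the 12 windows, 7 held an NF-Y box and 5 a GC box, beside 37.4% and 35.7% of 32851 promoter windows of the mouse genome. The SREBP site was in 1 window (1.24% of all windows), the single AGGTCA in 2 windows, of Acacb and Acly (16.3%), and the E-box in 1, of Mlxipl (7.15%). The DR4 element was in none (0.0152% of all windows). These matches describe letters only.

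The depth was 13060090 to 27981702 counts per library. The 8 muscle fibre markers, such as Ckm and Acta1, summed to 74020 to 131727 CPM (counts scaled to library size with TMM factors), and all 8 were detected. The list searched for rRNA-linked features also held Lars2, a gene that the paper names as having a significant dose response to running distance. A share of counts on 5 rRNA-linked features (the mitochondrial rRNAs among them) set libraries apart. It was under 1.5% in 26 libraries, which were all 24 running mice and mice 5 and 6 of HFD-C, and above that in all 6 NFD-C and the 4 other HFD-C libraries. Results of the runners against HFD-C were therefore repeated within the low-share set, where HFD-C has 2 mice. Running and this share cannot otherwise be told apart. NFD-C against HFD-C was repeated within the high-share set, with 6 NFD-C and 4 HFD-C mice.

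All 10 members passed the filter of a mean count of at least 25 in every comparison, with mean counts from 131 for Pnpla3 to 6531 for Acacb. Per length of transcript, Acacb had the highest level, with 39.6 ± 7.17 FPKM (SD over 36 mice). The transcription factors followed, with 18.7 ± 3.11 FPKM for Mlxipl, 10.5 ± 2.13 for Srebf1 and 7.13 ± 1.33 for Nr1h3. Scd1 had 4.65 ± 4.63 FPKM and Scd2 2.75 ± 0.823. The remaining enzymes lay lower, at 1.97 ± 0.462 FPKM for Acly, 1.73 ± 0.545 for Fasn, 1.47 ± 1.01 for Pnpla3 and 1.24 ± 0.239 for Acaca. The transcript of the mitochondrial-surface carboxylase was thus far more abundant than that of the cytosolic one in this muscle, and the synthase transcript was near the bottom. Protein was not measured. Mice differed most in Scd1, whose highest level was 21.7 times its lowest, and in Pnpla3, with 15.4 times. The other members varied 2.01- to 5.78-fold over all mice.

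**Figure D1:**
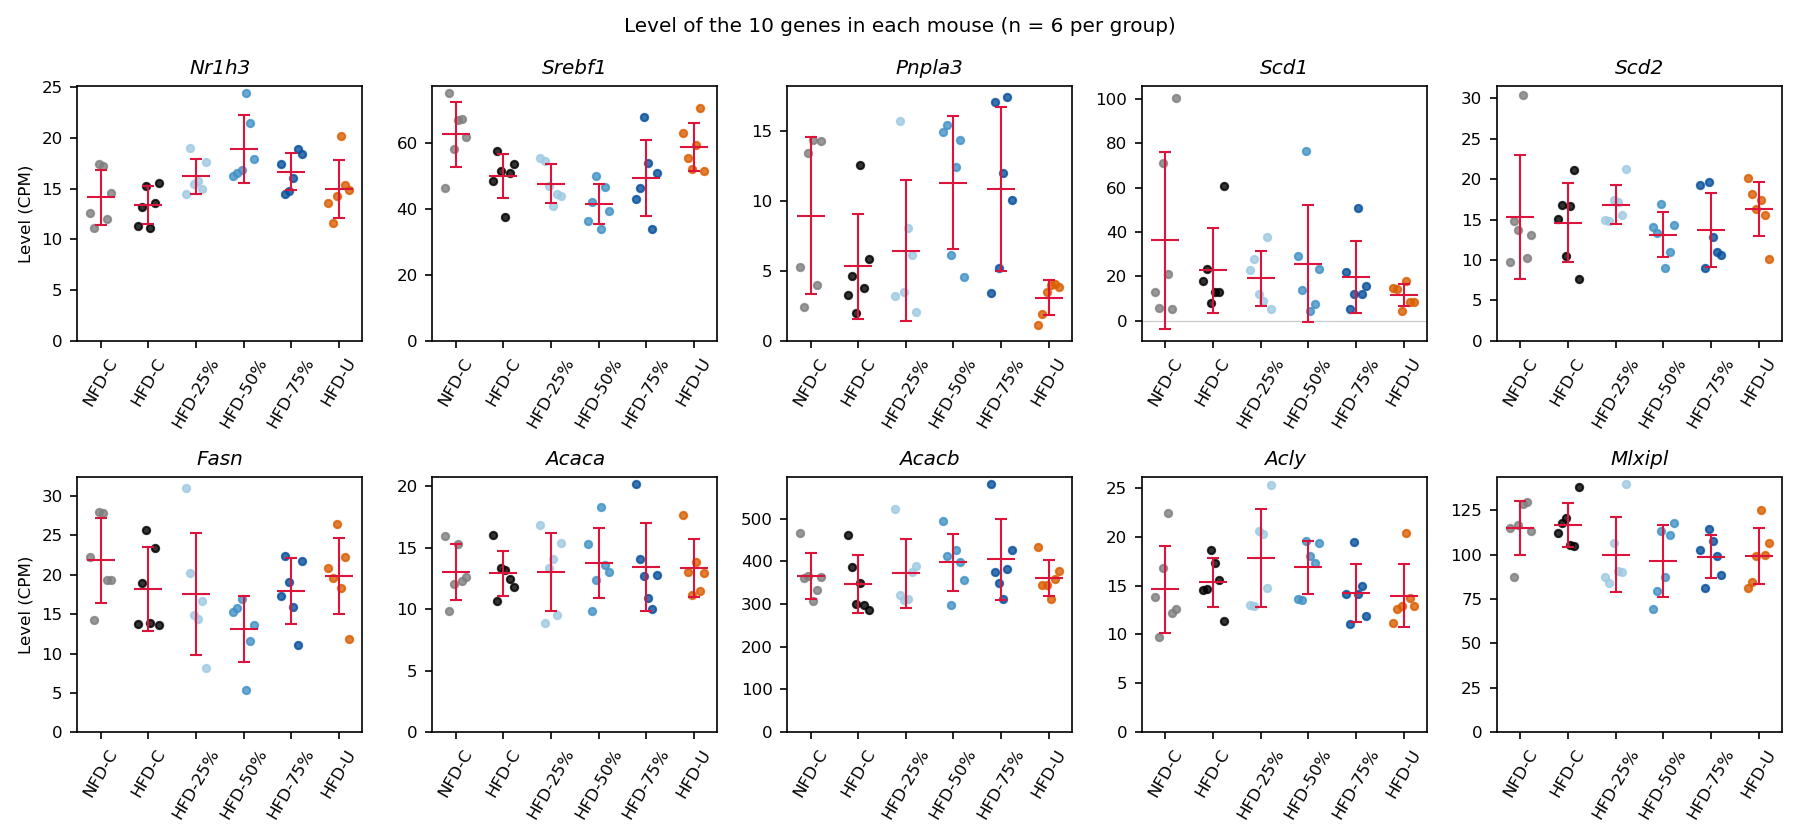
Level of each of the 10 genes in CPM (vertical axes, linear from 0) in each mouse (points) of the 6 groups (horizontal axes), with the mean ± SD of 6 mice in red. Nr1h3 in HFD-50% lies between 16.3 and 24.5 CPM, above every HFD-C mouse, Pnpla3 in HFD-U lies at or under 4.07 CPM, and Scd1 spreads widely in all groups.

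With edgeR's quasi-likelihood test, 0 of the 10 members had an adjusted p of at most 0.05 (Benjamini-Hochberg over all genes of a fit) in any of the 8 pairs of groups, the 2 distance responses or the test among the 6 groups. In the pairs the share of all genes at that level was 0.0082% in HFD-25% against HFD-C, 0.00844% in HFD-50% against HFD-U and 0% in the others, and in the tests over more groups it was 0.0419% (24 runners), 0.683% (30 mice on the high-fat diet) and 1.45% (6 groups). Below, a difference is said to pass where its unadjusted p was at most 0.05, the limit that the study's methods name, and 0 to 5 members did so in a comparison. DESeq2 had members at an adjusted p of at most 0.05 in 4 of these comparisons. Nothing in the labels says more of the mice than that they are separate samples, and the comparisons with HFD-C share its 6 mice, as those with HFD-50% share that group.

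Nr1h3 encodes LXR alpha, a nuclear receptor that binds oxysterols and pairs with RXR. Its level in HFD-C had a lowest value of 11.1, a median of 13.4 and a highest value of 15.6 CPM. In HFD-50% these were 16.3, 17.4 and 24.5 CPM, so that the groups did not overlap. In HFD-25% they were 14.5, 15.6 and 19.0 CPM, in HFD-75% 14.5, 16.8 and 18.9 CPM, in HFD-U 11.6, 14.6 and 20.3 CPM and in NFD-C 11.1, 13.6 and 17.5 CPM. The order of the means ran from HFD-50% (18.9 ± 3.34 CPM) over HFD-75%, HFD-25%, HFD-U and NFD-C to HFD-C (13.4 ± 1.87), and every gap between neighbours was smaller than the larger of their SDs.

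Against HFD-C, Nr1h3 passed as higher by 0.51 on the log2 scale in HFD-50% (SE 0.14, 95% interval 0.20 to 0.82, adjusted p = 0.207). It also passed as higher by 0.33 in HFD-75% (SE 0.12, adjusted p = 0.756) and by 0.28 in HFD-25% (SE 0.12, adjusted p = 0.685). In HFD-U the difference was 0.17, with a 95% interval from -0.14 to 0.48. Between HFD-50% and HFD-U it was 0.34 and passed (SE 0.15, adjusted p = 0.382). In NFD-C it was 0.09, with an interval from -0.22 to 0.40. The values were highest at the middle distance. In all 30 high-fat mice the linear and quadratic terms of distance passed for Nr1h3 (adjusted p = 0.0877), the fitted curve turned at 55.2% of the unrestricted distance, and DESeq2 gave an adjusted p of 0.032. Over the 24 runners alone the terms did not pass (adjusted p = 0.618).

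Within the low-share libraries, Nr1h3 no longer passed in any of these comparisons with HFD-C, with log2 differences of 0.39 (HFD-50%), 0.20 (HFD-75%) and 0.16 (HFD-25%). The distance response within that set still passed. Without the mice numbered 1 the Nr1h3 calls were lost in HFD-75% (0.27) and HFD-25% (0.27) against HFD-C and in HFD-50% against HFD-U (0.35). The Nr1h3 call in HFD-25% was lost without HFD-25% mouse 2 or 6 or HFD-C mouse 1, 2 or 4 (differences of 0.23 to 0.28). The call between HFD-50% and HFD-U was lost without HFD-50% mouse 4 or 5 or HFD-U mouse 1, 2, 3, 5 or 6 (differences of 0.24 to 0.34). In 1 fit over all 6 groups, Nr1h3 in HFD-50% against HFD-C had an adjusted p of 0.0426, in a range of 0.0426 to 0.584 over its alternatives. Nr1h3 (chr2:91014406-91033189, minus strand, GRCm39) overlaps Acp2 on the other strand, and whether the counting used strand is not given in the sources used here, so reads of the 2 genes may be mixed.

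Srebf1 encodes SREBP-1, and its count pools transcripts from several starts. Its values in HFD-50% had a lowest of 34.0, a median of 40.8 and a highest of 50.0 CPM. In HFD-U they were 51.5, 57.3 and 70.6 CPM, with no overlap with HFD-50%. In HFD-C they were 37.6, 51.2 and 57.5 CPM and in NFD-C 46.3, 64.5 and 75.2 CPM. HFD-25% had 40.8, 45.8 and 55.3 CPM, and HFD-75% 33.8, 48.5 and 67.9 CPM. Its mean was highest in the sedentary mice on the lower-fat diet (62.7 ± 9.89 CPM) and lowest in HFD-50% (41.4 ± 6.14). In this order only the steps from HFD-U (58.7 ± 7.27) to HFD-C (49.9 ± 6.75) and from HFD-25% (47.7 ± 5.99) to HFD-50% exceeded the larger SD of the neighbours.

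Srebf1 was lower in HFD-50% than in HFD-U by 0.50 on the log2 scale (difference -0.50, SE 0.12, 95% interval -0.76 to -0.24, adjusted p = 0.199, and an adjusted p of 0.0187 with DESeq2). It was higher in NFD-C than in HFD-C by 0.34 (SE 0.13, 95% interval 0.06 to 0.61, adjusted p = 1), and both passed. Against HFD-C the difference was -0.26 in HFD-50% (95% interval -0.54 to 0.01), 0.23 in HFD-U (interval -0.01 to 0.48), -0.07 in HFD-25% and -0.01 in HFD-75%. Its distance response had the opposite shape to that of Nr1h3, a trough at 49.8% of the unrestricted distance over the 24 runners (adjusted p = 0.32) and at 41.8% with HFD-C included (adjusted p = 0.168), and both passed. Among the 6 groups Srebf1 passed with an adjusted p of 0.0589 (DESeq2 adjusted p = 0.00815). No single mouse or alternative ended a call of Srebf1 at the unadjusted limit. Srebf1 (chr11:60089910-60113407, minus strand, GRCm39) overlaps Rai1 on the other strand.

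Mlxipl encodes ChREBP, the factor that responds to sugar metabolites. The sedentary groups had the highest means, 116 ± 12.4 CPM in HFD-C and 115 ± 15.1 CPM in NFD-C, and the runners lay between 96.4 ± 20.3 CPM in HFD-50% and 99.8 ± 21.1 CPM in HFD-25%. The lowest, median and highest values were 105, 115 and 138 CPM in HFD-C and 69.4, 99.0 and 118 CPM in HFD-50%, and the groups overlapped. Against HFD-C the log2 differences of Mlxipl were -0.27 in HFD-50%, -0.23 in both HFD-U and HFD-75%, and -0.22 in HFD-25%. None passed in edgeR without a block. With the mouse number as a block the HFD-U value (-0.24) passed, and with DESeq2 the HFD-75% value did (-0.23, unadjusted p = 0.0419). The 95% interval in HFD-75% reached from -0.46 to 0.00.

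**Figure D2:**
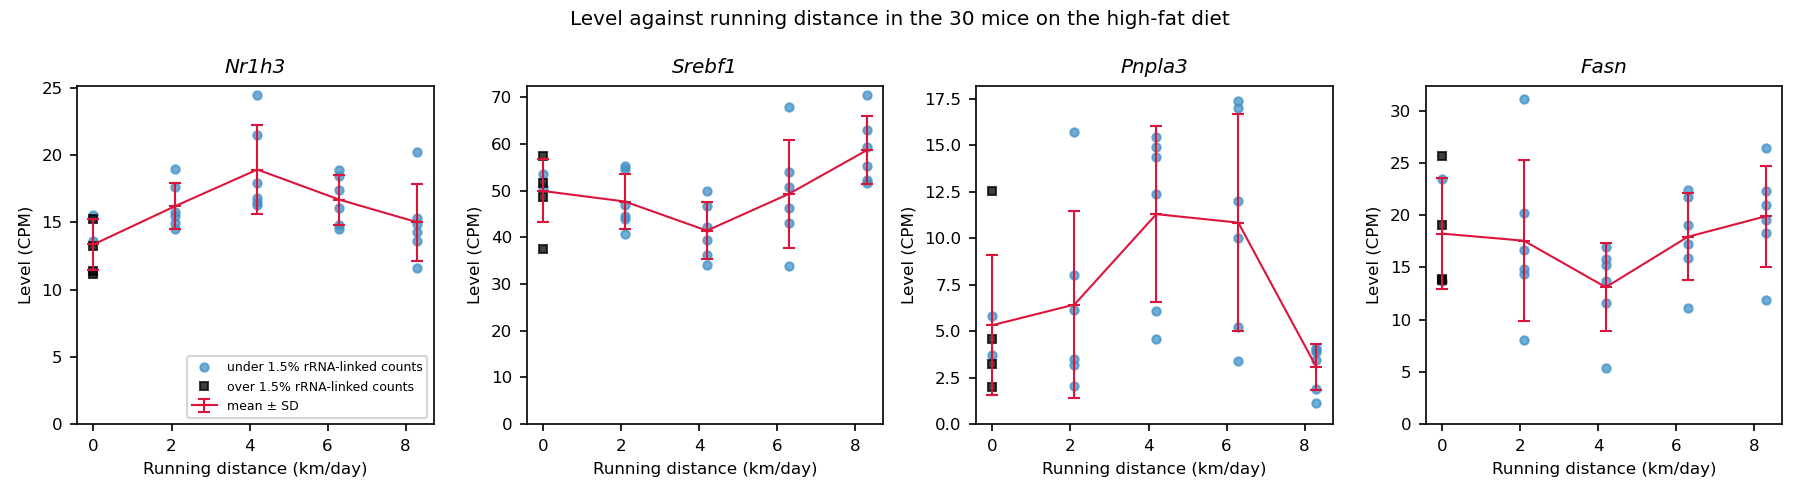
Level in CPM (vertical axes, from 0) against running distance in km/day (horizontal axes) for Nr1h3, Srebf1, Pnpla3 and Fasn in the 30 mice on the high-fat diet, where 0 km/day is HFD-C. Points are mice, squares are libraries with over 1.5% of rRNA-linked counts, and the red line is the mean ± SD of 6 mice; at 4.2 km/day Nr1h3 is at its highest mean (18.9 CPM) and Srebf1 (41.4 CPM) and Fasn (13.1 CPM) are at their lowest.

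Pnpla3 encodes a protein of the lipid droplet surface with activity on triglycerides and is known in liver as a target of SREBP-1 and ChREBP. Its lowest, median and highest values were 1.13, 3.66 and 4.07 CPM in HFD-U (19 to 62 counts) and 4.58, 13.4 and 15.5 CPM in HFD-50%, without overlap. In HFD-75% they were 3.40, 11.01 and 17.4 CPM, in HFD-25% 2.07, 4.82 and 15.7 CPM, in HFD-C 2.01, 4.17 and 12.5 CPM and in NFD-C 2.44, 9.34 and 14.3 CPM. HFD-U held low values only. In CPM every other group spread more widely, but relative to its mean HFD-50% spread about as much as HFD-U (coefficients of variation 42.1% and 40.6%). The order of the means ran from HFD-50% (11.3 ± 4.76 CPM) over HFD-75% (10.8 ± 5.83), NFD-C (8.95 ± 5.62), HFD-25% (6.43 ± 5.04) and HFD-C (5.33 ± 3.75) to HFD-U (3.07 ± 1.25), and every step was smaller than the larger SD of the neighbours.

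Between HFD-50% and HFD-U, Pnpla3 differed by 1.88 on the log2 scale (SE 0.35, 95% interval 1.13 to 2.62) and passed. It ranked 11 by p among the 11851 genes of that fit, with an adjusted p of 0.0731 in edgeR and of 0.000136 in DESeq2. Without a minimum count the edgeR value was 0.0103, and over all alternatives the adjusted p was 0.000136 to 0.247. Against HFD-C, Pnpla3 was higher by 1.10 in HFD-50% (SE 0.40, 95% interval 0.25 to 1.94, adjusted p = 0.338) and by 1.05 in HFD-75% (SE 0.44, 95% interval 0.12 to 1.98, adjusted p = 0.856), and both passed. The values in HFD-25% (0.28), NFD-C (0.76) and HFD-U (-0.78) had intervals that included 0. The distance response of Pnpla3 over the 24 runners, which does not use HFD-C, passed with a peak at 56.4% of the unrestricted distance (adjusted p = 0.186, DESeq2 adjusted p = 0.011). It passed too with HFD-C included (adjusted p = 0.117) and among the 6 groups (adjusted p = 0.153).

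Within the low-share libraries Pnpla3 in HFD-50% against HFD-C was 1.25 and passed, and in HFD-75% it was 1.19 and did not. The HFD-75% call of Pnpla3 was also lost without HFD-75% mouse 2 or 5 or HFD-C mouse 1, 2, 3 or 5 (differences of 0.86 to 1.01), and the HFD-50% call was lost without all mice numbered 1 (0.89). HFD-C mouse 4, with 12.5 CPM, had the highest Pnpla3 of its group, and without it the differences were 1.55 in HFD-50% and 1.51 in HFD-75%.

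Acly, Acaca and Acacb carry carbon from citrate to malonyl-CoA. None of the 3 passed in any of the 8 pairs of groups or in the 3 tests over several groups. Acaca, the cytosolic carboxylase, had the flattest means, from 12.9 ± 1.82 CPM in HFD-C to 13.7 ± 2.85 CPM in HFD-50%, and its log2 differences from HFD-C were 0.01 to 0.09, with the widest 95% interval in HFD-25%, from -0.34 to 0.36. Acacb, on the mitochondrial surface, had its highest mean in HFD-75% (405 ± 94.5 CPM) and its lowest in HFD-C (347 ± 68.1 CPM), with differences from HFD-C of 0.23 in HFD-75% (interval -0.11 to 0.57) and 0.20 in HFD-50% (interval -0.13 to 0.53). Acly ran from 13.9 ± 3.23 CPM in HFD-U to 17.8 ± 5.00 CPM in HFD-25%. Acaca (chr11:84020461-84292477, plus strand, GRCm39) overlaps Tada2a on the other strand.

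Fasn encodes the synthase that makes palmitate. Its lowest, median and highest values were 5.38, 14.5 and 17.0 CPM in HFD-50% and 11.9, 20.3 and 26.4 CPM in HFD-U, and 13.7, 16.5 and 25.7 CPM in HFD-C. HFD-50% had the lowest mean (13.1 ± 4.22 CPM) and NFD-C the highest (21.8 ± 5.35). Fasn was lower in HFD-50% than in HFD-U (log2 difference -0.61, SE 0.23, 95% interval -1.11 to -0.11, adjusted p = 0.331), which passed. Without HFD-U mouse 3 that value was -0.51 and did not pass. Against HFD-C the Fasn difference in HFD-50% was -0.48 (95% interval -1.002 to 0.04), and in the other comparisons with HFD-C it was 0.26 (NFD-C), 0.13 (HFD-U), -0.02 (HFD-75%) and -0.05 (HFD-25%). Fasn was thus highest and lowest in the same groups as Srebf1.

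Scd1 and Scd2 encode the desaturases that make oleate and palmitoleate. Scd1 had a lowest, median and highest value of 4.64, 11.6 and 17.7 CPM in HFD-U, of 8.26, 15.6 and 60.6 CPM in HFD-C, of 4.63, 18.6 and 76.3 CPM in HFD-50% and of 5.37, 17.2 and 100.5 CPM in NFD-C. These groups overlapped, and a few mice held the high values. Scd1 was lower in HFD-U than in HFD-C (log2 difference -0.98, SE 0.42, 95% interval -1.88 to -0.08, adjusted p = 0.883) and higher in HFD-50% than in HFD-U (1.17, SE 0.54, 95% interval 0.02 to 2.33, adjusted p = 0.393), and both passed. Without HFD-C mouse 6 the first Scd1 difference was -0.40, and its call was also lost without HFD-C mouse 2 or HFD-U mouse 3, 5 or 6 (-0.97 to -0.81). Within the low-share libraries the first difference was -1.67 and passed, but HFD-C there is only mouse 5 (12.8 CPM) and mouse 6 (60.6 CPM). Without HFD-50% mouse 3 the second was 0.44, and its call was lost too without HFD-50% mouse 1 or 6 or HFD-U mouse 1, 2, 3, 5 or 6 (1.01 to 1.25). That Scd1 call was also lost with DESeq2 (1.17), in 1 fit over all groups (1.17), without the mice numbered 1 (1.22) and with the mouse number as a block (0.67), and the first was lost in 1 fit over all groups (-0.98).

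Scd1 moved with the amount of fat cell transcripts in a library. The mean log2 level of 8 adipocyte markers (Adipoq, Plin1, Cidec, Lep, Cfd, Retn, Adrb3 and Fabp4) and log2 Scd1 had a Pearson r of 0.91 and a Spearman rho of 0.912 over the 36 mice (permutation p = 1.0e-05 for each, the smallest that 100000 permutations can give, adjusted p = 2.0e-04 over 40 relations). Without the 2 mice farthest from the median r was 0.901, within groups it was 0.915, and it was 0.872 in the 26 low-share and 0.983 in the 10 other libraries. Besides Fabp4, which endothelial cells also express, the markers summed to 1.57 to 14.9 CPM in HFD-U, 2.74 to 90.7 in HFD-C, 3.07 to 39.3 in HFD-50%, 1.10 to 24.3 in HFD-25%, 2.27 to 85.9 in HFD-75% and 1.75 to 60.2 in NFD-C. In HFD-U against HFD-C, 3 of the 5 adipocyte markers tested passed as lower (Adipoq, Cidec and Lep, lowest adjusted p = 0.402), beside 5.46% of all genes in either direction. The median log2 difference of the tested markers was -1.84 in HFD-U, -1.71 in HFD-25%, -0.64 in HFD-50% and -1.06 in HFD-75%. HFD-C mouse 6 held 90.7 CPM of the sum without Fabp4, and mouse 2, the next, 18.5. Medians of that sum were 9.02 CPM in HFD-U, 7.67 in HFD-25%, 9.08 in HFD-50% and 3.88 in HFD-75%, beside 7.77 in HFD-C. Adipoq, Cidec and Lep were below 0 in HFD-25%, HFD-50% and HFD-75%. Cfd was above 0 there (0.30, 0.22 and 1.13) and did not pass. Each of the 8 markers was detected in every group, with 2 to 5 of them at 0 in at least 1 library of a group. With the marker level as a covariate Scd1 no longer passed in either comparison (log2 difference -0.28 in HFD-U against HFD-C and 0.38 in HFD-50% against HFD-U). In such bulk samples fewer cells of a type and less RNA per cell cannot be told apart.

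Scd2 had group means of 13.1 ± 2.79 CPM in HFD-50% to 16.9 ± 2.43 CPM in HFD-25%. Its lowest, median and highest values were 8.97, 13.7 and 16.9 CPM in HFD-50% and 14.8, 16.4 and 21.2 CPM in HFD-25%. Scd2 was lower in HFD-50% than in HFD-25% (log2 difference -0.36, SE 0.15, 95% interval -0.68 to -0.04, adjusted p = 1), the only one of the 11 comparisons in which it passed. That call was lost without HFD-25% mouse 6 or HFD-50% mouse 4 or 5 (-0.32 to -0.28), and in 1 fit over all groups (-0.36). Scd2 followed the 8 Schwann cell markers with r = 0.593 and rho = 0.562 (permutation p = 1.8e-04 and 3.3e-04, adjusted p = 0.0018 and 0.0033 over 40 relations), and r was 0.416 without the 2 farthest mice. Acly followed the 5 endothelial markers, such as Pecam1 and Cdh5, with r = 0.794 and rho = 0.714 (permutation p = 1.0e-05 for each, adjusted p = 2.0e-04), and the Schwann cell markers with r = 0.586 and rho = 0.6 (permutation p = 1.7e-04 and 1.5e-04, adjusted p = 0.0018 and 0.002). Within groups these r values were 0.668 for Scd2, 0.791 and 0.555 for Acly. Without the 2 farthest mice they were 0.738 and 0.573 for Acly. The low-share libraries gave 0.496 for Scd2 and 0.854 and 0.478 for Acly, and the others 0.775, 0.763 and 0.805. The other 36 of the 40 relations between a member and a marker list did not pass an adjusted p of 0.05. Nearest to that limit was Mlxipl with the endothelial markers, with r = 0.445 and rho = 0.423 (permutation, adjusted p = 0.0522 and 0.0829). Within groups that r was 0.69.

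**Figure D3:**
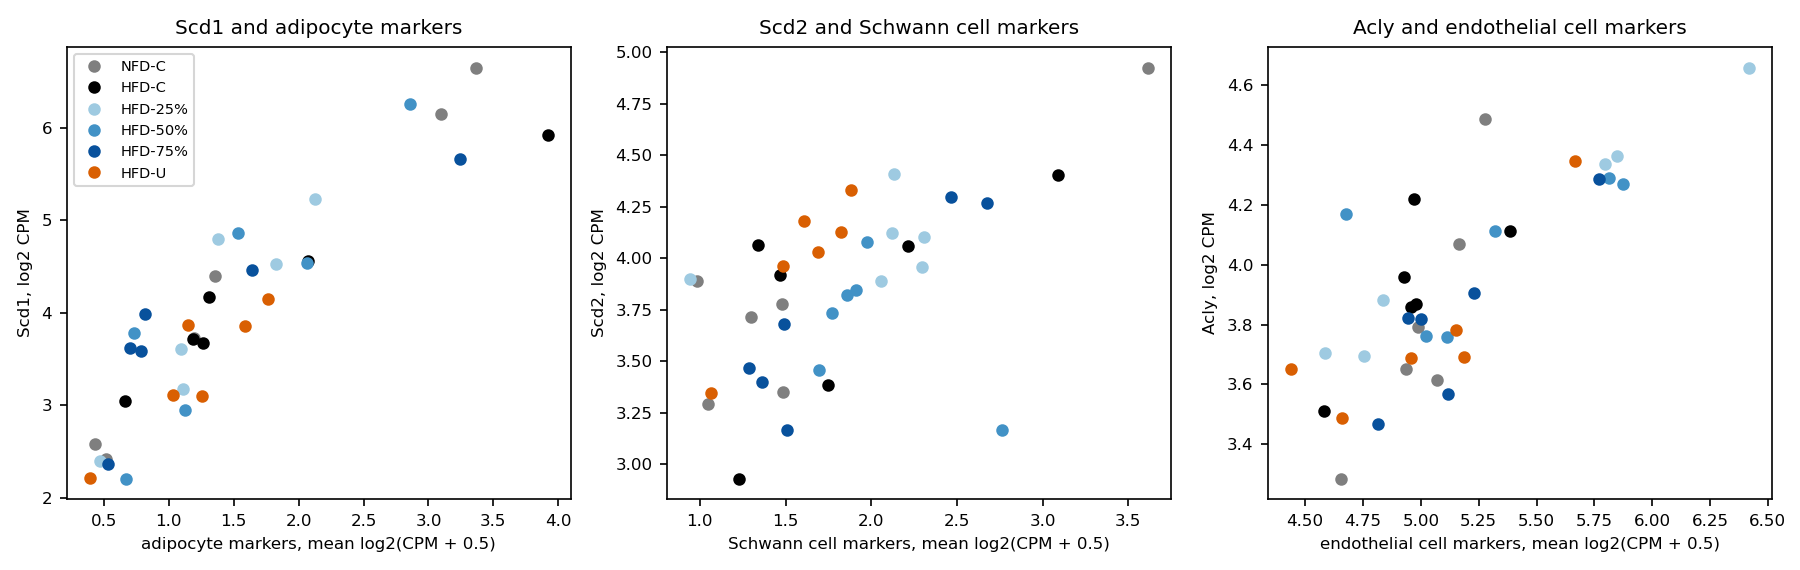
Level of Scd1, Scd2 and Acly as log2 CPM (vertical axes) against the mean log2(CPM + 0.5) of the adipocyte, Schwann cell and endothelial cell markers (horizontal axes) in 36 mice, 1 point each, coloured by group. Scd1 rises with the adipocyte markers in a narrow band (r = 0.91), Scd2 (r = 0.593) and Acly (r = 0.794) in wider ones.

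The members that passed are set here beside the share of all tested genes that did so. Against HFD-C there was 1 member of 10 in NFD-C (Srebf1, background 4.12% of 12247 genes), 1 in HFD-25% (Nr1h3, 6.98% of 12202), 2 in HFD-50% (Nr1h3 and Pnpla3, 10.7% of 12116), 2 in HFD-75% (the same genes, 5.47% of 12113) and 1 in HFD-U (Scd1, 5.46% of 12023). In HFD-U and HFD-C all 6 same-numbered pairs deviated together (r = 0.135 to 0.534), though no source says what a number marks. With the number as a block 3 members passed in HFD-U, Srebf1 (0.24, adjusted p = 0.488), Scd1 (-0.77, adjusted p = 0.446) and Mlxipl (-0.24, adjusted p = 0.457). The share of all genes that passed with the block is not given here, and the 5.46% is from the fit without it. HFD-50% differed from HFD-25% in 1 member (Scd2, background 2.69% of 12020) and from HFD-75% in 0 members (5.37% of 11896), and DESeq2 also had 0 at the unadjusted limit. Between HFD-50% and HFD-U 5 of 10 members passed (background 12.4% of 11851 genes), with 3 higher in HFD-50% (Pnpla3, Nr1h3 and Scd1, background 7.08%) and 2 lower (Srebf1 and Fasn, 5.34%). DESeq2 had 2 of them, Pnpla3 and Srebf1, at an adjusted p of at most 0.05 (background 0.861%). Without the mice numbered 1 the count was 3.

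Groups without overlap were found for 1 of 10 members in HFD-50% against HFD-C (Nr1h3, background 0.792%) and for 2 of 10 in HFD-50% against HFD-U (Srebf1 and Pnpla3, background 0.878%). The distance response had 2 members over the 24 runners (background 8.49%) and 3 with HFD-C included (12.2%), and the test among the 6 groups had 3 (12.2%). With DESeq2, 1 member in each of these had an adjusted p of at most 0.05, which was Pnpla3 (background 0.436%), Nr1h3 (2.05%) and Srebf1 (3.69%). The median log2 difference of the 10 members was 0.12 in HFD-50% against HFD-C, beside 0.01 for all genes of the fit, and 0.09 in HFD-50% against HFD-U, beside 0.02. The members did not move together: in the latter comparison they ranged from -0.61 for Fasn to 1.88 for Pnpla3.

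**Figure D4:**
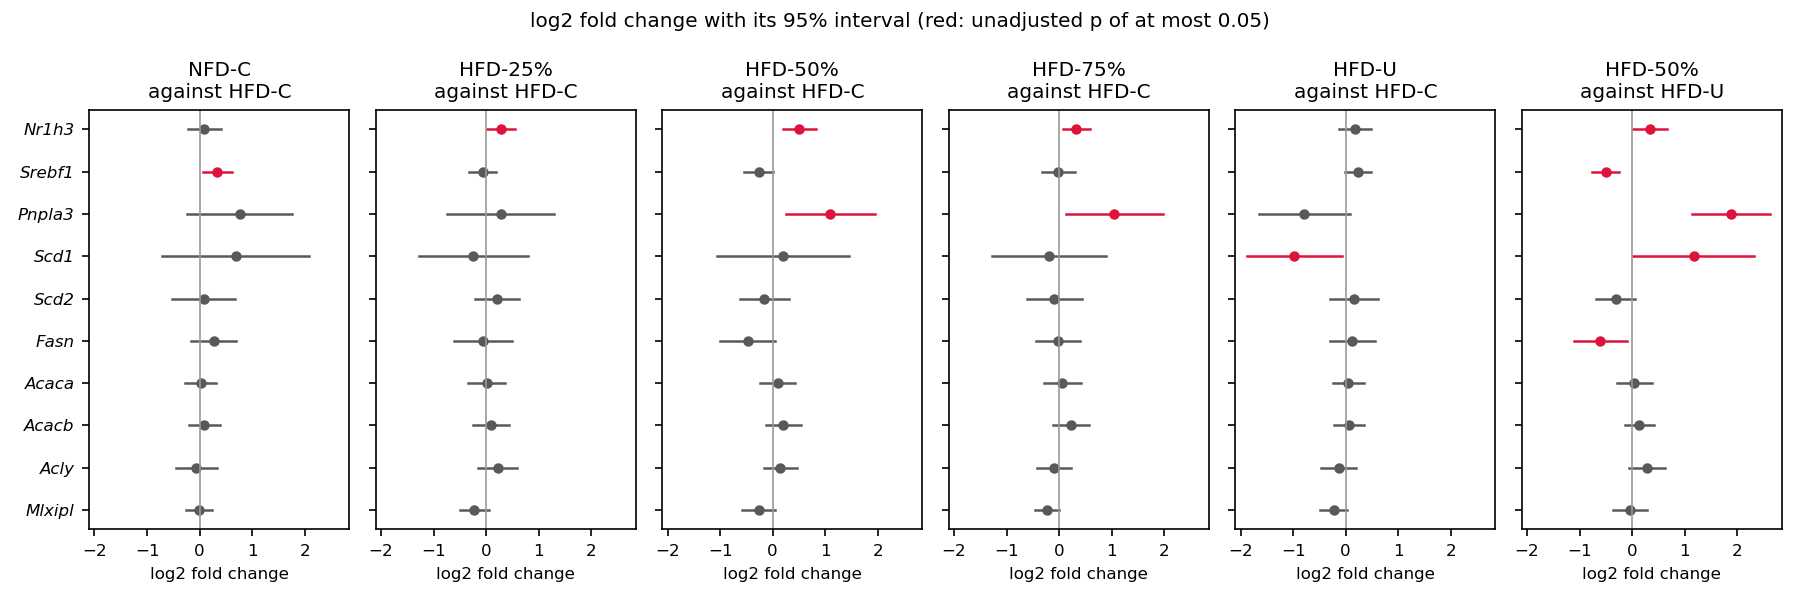
log2 fold change of the 10 genes (rows) with its 95% interval in 6 comparisons (panels), red where it passed. In HFD-50% against HFD-U 5 genes are red, with Pnpla3 (1.88) farthest right and Fasn (-0.61) farthest left.

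The other genes of the pathways, 36 on lists of general knowledge, were counted list by list. In HFD-50% against HFD-C, 12 of 35 genes tested passed, 11 higher and 1 lower, beside 10.7% of all genes in either direction (5.8% higher and 4.89% lower). Of the 6 LXR target genes 5 were higher, with a median log2 difference of 0.49 over the 6. They were Mylip, a ligase that degrades the LDL receptor (0.57, SE 0.18), the phospholipid acyltransferase Lpcat3 (0.38, SE 0.13), Apoe (0.60, SE 0.21), and the cholesterol exporters Abcg1 (0.87, SE 0.32) and Abca1 (0.41, SE 0.17), with adjusted p = 0.277 to 0.396. The list of LXR targets holds no members. It leaves out Srebf1, which LXR alpha raises in liver, and the synthesis and desaturase genes described above. None of those passed in HFD-50% against HFD-C, with log2 differences of -0.48 for Fasn, -0.26 for Srebf1 and -0.16 for Scd2. The differences were 0.09 for Acaca, 0.14 for Acly and 0.20 for both Scd1 and Acacb. Of the 9 tested genes of fatty acid supply, elongation and desaturation none passed. The smallest p of all lists belonged to Pnpla2, the main triglyceride lipase (0.75, SE 0.19, adjusted p = 0.169), and Txnip, a ChREBP target that limits glucose uptake, was higher by 0.50 (SE 0.15, adjusted p = 0.23). Within the low-share libraries 3 of the 6 LXR targets passed, and without HFD-50% mouse 3 also 3. The shares of all genes in those fits are not given here.

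HFD-25% differed from HFD-C in 5 of 35 genes (background 6.98%), all higher (3.4%), and 4 of them were LXR targets, led by Abcg1 (0.95, SE 0.35, adjusted p = 0.597). Thrsp, a lipogenesis-linked nuclear protein (0.60, SE 0.23), and Abca1 (0.46, SE 0.18) came next. In HFD-75% 7 passed (background 5.47%), all higher (2.31%), 2 of them LXR targets, with Lpin1 (0.59, SE 0.16, adjusted p = 0.397), Abca1 (0.57, SE 0.19) and Pnpla2 (0.47, SE 0.16) at the smallest p. In HFD-U 4 passed (background 5.46%), all higher (2.15%), led by Lpcat3 (0.35, SE 0.13, adjusted p = 0.79), Lpin1 (0.39, SE 0.16) and Thrsp (0.52, SE 0.23). NFD-C differed from HFD-C in Lpin1 (0.41, SE 0.15) and Thrsp (0.53, SE 0.22), 2 of 35 (background 4.12%), both higher (1.98%). Without HFD-25% mouse 4 the count in HFD-25% was 2, and without HFD-C mouse 3 or HFD-U mouse 3 or 5 that in HFD-U was 2. The count in NFD-C was 4 without NFD-C mouse 1 or HFD-C mouse 2, 6 without HFD-C mouse 5, and 1 without NFD-C mouse 5 or HFD-C mouse 6. Of the 5 endothelial markers 3 were higher in HFD-25% too (Cdh5, Tie1 and Esam), and 2 in HFD-50% (Tie1 and Esam). Their part in the LXR target values was not tested. For HFD-25%, HFD-75% and HFD-U, the counts of pathway genes within the low-share libraries are not given here. Running and the rRNA-linked share therefore cannot be told apart in these counts.

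Between HFD-50% and HFD-U 6 of 34 pathway genes passed (background 12.4%), 5 higher in HFD-50%, among them Mlxip (0.50, SE 0.16, adjusted p = 0.262), a gene closely related to Mlxipl, Txnip (0.34, SE 0.12) and Apoe (0.61, SE 0.22), and 1 lower (Rxrg, -0.51, SE 0.20). Against HFD-25%, HFD-50% differed in Txnip (0.26, SE 0.12), 1 of 34 (background 2.69%), and against HFD-75% in Mylip (0.33, SE 0.13) and Abcg1 (0.74, SE 0.31), 2 of 34 (background 5.37%). The first count was 0 without any 1 of HFD-25% mice 2 to 6 or HFD-50% mice 2, 4 and 5, 2 without HFD-50% mouse 1 and 3 without HFD-50% mouse 3. The second was 5 without HFD-50% mouse 1 or HFD-75% mouse 1, 1 without HFD-75% mouse 4 and 0 without HFD-50% mouse 6 or HFD-75% mouse 2 or 6. With HFD-C included 10 of 35 had a distance response (background 12.2%), 5 of the 6 LXR targets among them, and the smallest p was that of Txnip (adjusted p = 0.0663). Over the 24 runners it was 5 of 35 (background 8.49%), with Mlxip first (adjusted p = 0.307). That count was 8 without HFD-25% mouse 1, 3 without HFD-25% mouse 3 or HFD-U mouse 1, 3 or 6, and 2 without HFD-U mouse 2. Among the 6 groups 8 of 35 passed (background 12.2%), and Pnpla2 was the single gene of the lists at an adjusted p of at most 0.05 (adjusted p = 0.041). In the list of SREBP partners and processing, the single pass in the 8 pairs of groups was Scap, higher in HFD-50% than in HFD-C (0.25, SE 0.10).

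**Figure D5:**
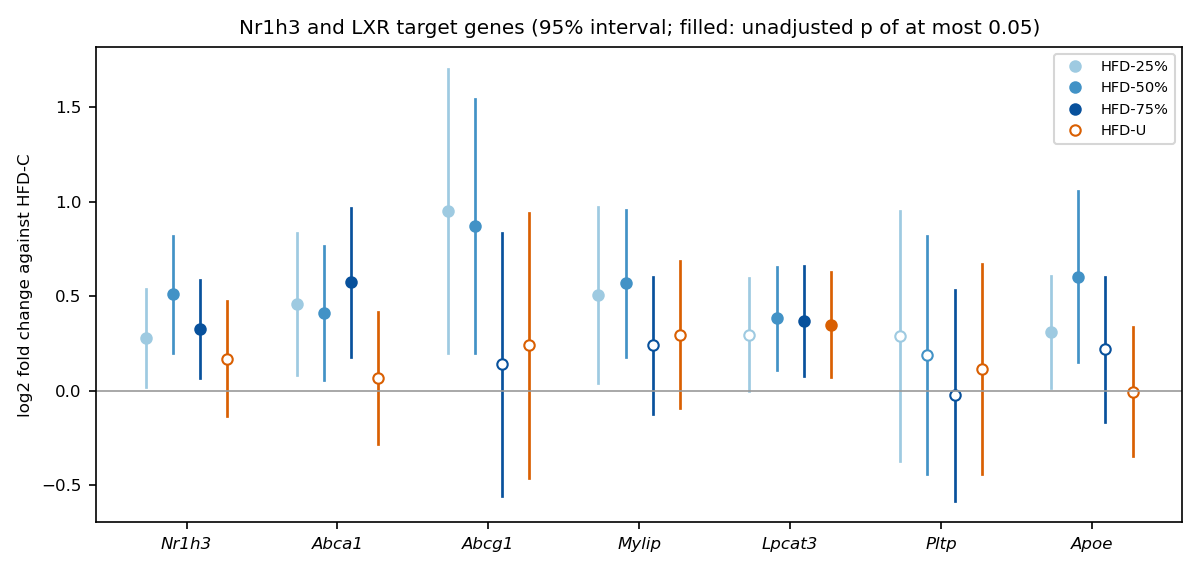
log2 fold change against HFD-C (vertical axis) of Nr1h3 and 6 LXR target genes outside the members (horizontal axis) in the 4 running groups (colours). It is shown with 95% intervals and filled points where it passed. Nr1h3 and 5 targets are filled in HFD-50%, and in HFD-U only Lpcat3 is (0.35).

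Relations between members over the 36 mice were weak for most pairs. Of 45 pairs, Srebf1 and Fasn had the highest r, 0.561 (rho 0.541, permutation p = 3.1e-04 and 7.1e-04, adjusted p = 0.0139 and 0.0319), and r was 0.423 without the 2 farthest mice and 0.386 within groups. It was 0.62 in the 26 low-share libraries and 0.232 in the 10 others. Acaca and Acacb had r = 0.514 and rho = 0.383 (permutation p = 0.00129 and 0.0215, adjusted p = 0.029 and 0.121). For this pair r was 0.387 without the 2 farthest mice and 0.522 within groups, and 0.569 and 0.285 in the 2 sets of libraries. Acly and Mlxipl had r = 0.48 and rho = 0.465 (permutation p = 0.00312 and 0.00492, adjusted p = 0.0468 and 0.0798), with r = 0.359 without the 2 farthest mice, 0.673 within groups, and 0.537 and 0.583 in the sets. The other 42 pairs did not pass an adjusted p of 0.05.

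The genes most like each member were sought among 12043 others by Pearson's r of log2 CPM over the 36 libraries, as a description. Pnpla3 was most like Nfil3 (r = 0.833, and 0.778 within groups), a repressor linked to the circadian clock, Angptl4 (0.807 and 0.783), an inhibitor of lipoprotein lipase, and Irf2bp2 (0.766 and 0.718). Scd1 was most like Pck1 (0.912), the fat droplet protein gene Cidec (0.901) and the adipokine gene Adipoq (0.894), and Scd2 was like Reln (0.658) and Itpr3 (0.658). Acly was like Emcn (0.849), an endothelial mucin gene, and Sptan1 (0.848). Acacb was nearest to Dync1h1 (0.904), Ppp1r12b (0.901) and Vps13d (0.888), and Fasn to Igfbp5 (0.797), Slc35e4 (0.79) and Slc25a30 (0.786). For Nr1h3 the genes were Odf2 (0.76), Mecr (0.754) and Mocs1 (0.723), for Srebf1 Nmrk2 (0.706), Mrtfa (0.692) and an unnamed feature (0.691), for Mlxipl Gimap6 (0.737), Aopep (0.707) and Itpkb (0.704), and for Acaca Slc22a23 (0.69), Synj2 (0.688) and Bcl7a (0.68).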

How the data were processed

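The authors made the deposited counts, which are whole numbers per gene and library with no normalization. Per the labels, RNA was selected by its poly(A) tail, and the submitters' processing notes name HISAT2 2.0.5 and featureCounts 1.5.0-p3. Those notes list the build mm10, while the chromosome accessions beside the counts are those of GRCm39, so coordinates are given as the files have them. Promoter windows are from RefSeq on GRCm38.p6 and were matched by gene name.

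The fits used edgeR 4.0.16 under R 4.3.3 (TMM, a minimum mean count of 25 per gene, quasi-likelihood F-test, two-sided, Benjamini-Hochberg over all genes of a fit). DESeq2 1.42.0 was an alternative. Distance entered as a linear and a quadratic term. CPM and FPKM were computed from the counts and the gene lengths in the file. Correlations used 100000 permutations. The fits were tested on simulated data.

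The mice carry numbers 1 to 6 in every group. Same-numbered mice deviated together in HFD-U and HFD-C (6 of 6 pairs, r = 0.135 to 0.534), and elsewhere in 1 to 5 of 6 pairs. This pairing comes from the data, since no source says what a number marks.

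The members, the 36 pathway genes, the marker lists and the tests were chosen with earlier results of these data known. Named were all members, with full values where the unadjusted p was at most 0.05, up to 3 pathway genes of smallest p per comparison, other pathway genes of counts of 5 or fewer after their values were seen, and the 3 most similar genes, of which some are not reported here. Alternatives were DESeq2, no minimum count, other size factors (RLE), a block for the mouse number, no mice numbered 1, an adipocyte covariate, 1 fit over all groups, the libraries of 1 set, and leaving out each mouse. Replicates of a group differed by 13.4 to 162 times the sampling variance, so none was a copy. Fold changes and intervals cover the spread between mice. Depth was 13060090 to 27981702 counts per library.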

Additional observations from a re-analysis of the deposited data

Results flagged for a closer look

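Of the 60 sets of 6 mice (10 genes in 6 groups), 5 held a mouse whose gap to its nearest neighbour was large beside the range of the group on the log2 scale, where chance flags about 1 in 20. Scd2 in NFD-C mouse 4 was 30.4 CPM, beside 9.80 to 14.8 CPM in the others of that group. Scd2 in HFD-U mouse 6 was 10.2 CPM, beside 15.6 to 20.2 CPM. Fasn in HFD-50% mouse 4 was 5.38 CPM, beside 11.6 to 17.0 CPM. Acly in HFD-U mouse 4 was 20.3 CPM, beside 11.2 to 13.7 CPM. Mlxipl in NFD-C mouse 2 was 87.6 CPM, beside 113 to 130 CPM.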

How the results depend on the processing

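Of the 21 member and comparison pairs that passed the unadjusted limit, 12 held under every alternative other than leaving out single mice and 14 with each mouse left out, and none reversed. Counts of members at that limit changed by over 1.5 times as follows, and the cause was not tested. The shares of all genes under these alternatives are not given here. HFD-25% against HFD-C (1) had 2 with the replicate block, 0 without the mice numbered 1 and 0 within the library set. HFD-50% against HFD-C (2) had 5 with the block and 1 within the set, where the LXR targets fell from 5 to 3. HFD-75% against HFD-C (2) had 1 without the mice numbered 1 and 0 within the set. HFD-U against HFD-C (1) had 2 with DESeq2, 2 without a minimum count, 3 with the block and 0 in 1 fit over all groups. HFD-50% against HFD-25% (1) had 2 without a minimum count, 2 with the block and 0 in 1 fit over all groups. HFD-50% against HFD-75% (0) had 1 without a minimum count and 1 with the block, and HFD-50% against HFD-U (5) had 3 without the mice numbered 1. The distance response over the 24 runners (2) had 5 with the block.

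At an adjusted p of at most 0.05, where edgeR had 0 members, there was 1 in HFD-50% against HFD-C in 1 fit over all groups, 2 with DESeq2 and 1 without a minimum count in HFD-50% against HFD-U, 1 with DESeq2 over the 24 runners, 1 with DESeq2 and 2 with the replicate block over the 30 mice, and 1 with DESeq2 and 1 with the block among the 6 groups. Outside HFD-U and HFD-C, where all 6 pairs were over 0.1, fewer than all same-numbered pairs were (5 of 6 in HFD-50% and HFD-C), so the numbers were not taken to pair the mice there.

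With single mice left out, the counts of members ranged from 1 to 2 in NFD-C, 0 to 1 in HFD-25%, 2 to 4 in HFD-50%, 1 to 3 in HFD-75% and 0 to 2 in HFD-U against HFD-C. For HFD-50% they ranged from 0 to 2 against HFD-25%, 0 to 2 against HFD-75% and 2 to 6 against HFD-U, and the LXR targets in HFD-50% from 3 to 5. They ranged from 2 to 4 over the 24 runners, 3 to 4 over the 30 mice and 3 to 4 among the 6 groups, and the counts at an adjusted p from 0 to 1 in the last pair. The counts of other pathway genes ranged from 1 to 6 in NFD-C, 2 to 6 in HFD-25%, 9 to 13 in HFD-50%, 5 to 9 in HFD-75% and 2 to 5 in HFD-U against HFD-C, and for HFD-50% from 0 to 3 against HFD-25%, 0 to 5 against HFD-75% and 4 to 8 against HFD-U. They ranged from 2 to 8 over the 24 runners, 7 to 13 over the 30 mice and 6 to 11 among the 6 groups. With the replicate block they were 5 in NFD-C and 9 in HFD-25% against HFD-C, 12 in HFD-50% against HFD-U and 19 among the 6 groups. The shares of all genes with single mice left out or with the block are not given here, so these counts have no background beside them. Pnpla3, with 19 to 62 counts per library in HFD-U, is the member that depth limits most.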
